A study of Mus musculus with 6 samples.

Results

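The 10 genes described here encode heat shock proteins with inducible, constitutive, endoplasmic reticulum (ER) and testis-enriched forms: Hspa1a, Hspa1b, Hspa1l, Hspa2, Hspa5, Hspa8, Hsph1, Hsp90aa1, Hsp90ab1 and Dnajb1. They were taken by symbol from a deposited table of 54532 mouse genes. All 10 were found, and all 10 were among the 17658 genes with enough fragments to be tested. The samples were whole testes of mice on postnatal day 9, of 2 genotypes: wild type and Ppp6r3 cKO, with 3 libraries of each. Ppp6r3 encodes a regulatory subunit of the protein phosphatase PP6, and the series title concerns mRNA translation during spermatogonial differentiation. The labels do not name the Cre driver, the deleted exons or the genotype at the floxed allele of the wild-type mice. Separate animals are not stated for the libraries of a group, and the p-values therefore measure the spread between these libraries, which may be technical.

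Heat shock proteins are chaperones that bind unfolded or newly made proteins and release them through cycles of ATP hydrolysis. HSP70 proteins are loaded by J-domain partners such as DNAJB1 and reset by nucleotide exchange factors such as HSPH1, and HSP90 proteins act later on a narrower range of client proteins. When unfolded protein builds up, the factor HSF1 induces the cytosolic forms through heat shock elements in their promoters, while ER stress induces the ER forms through separate elements. The testis also makes HSP70 forms of its own: HSPA2 accompanies spermatocytes through meiosis, and HSPA1L belongs to spermatids.

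Expression was deposited as FPKM, a fragment count divided by the exon length of the gene and by library depth, so levels can be compared between genes per length. The values corresponded to between 15970909 and 16606868 fragments per library. Ppp6r3 itself was at 20.8, 21.3 and 21 FPKM in the wild-type libraries and at 15.8, 15.3 and 14.9 FPKM in the cKO libraries. It was lower in every cKO library, by 0.45 on the log2 scale (log2 fold change -0.45, SE 0.042, limma adjusted p = 0.000695), and most of its RNA was still counted in whole testis. Library replicate 1 of the cKO group stood apart from the other 5 in its GC content: in it, genes of the lowest GC content were 0.111 lower and genes of the highest GC content 0.126 higher than the average library on the log2 scale.

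Among the heat shock genes, Hspa5, the ER form of HSP70, showed the clearest difference: it fell from 162.8 ± 0.804 to 119.6 ± 5.97 FPKM (SD, n = 3 per group). Hspa2 and Hsph1 also fell, Hsp90ab1 rose, and the 6 others did not pass the test. A gene was called changed at a Benjamini-Hochberg adjusted p under 0.05 in a limma fit across all tested genes. By that rule 4 of 10 heat shock genes changed, where 15.5% of all tested genes did. In that count 1 rose (7.67% of all tested genes rose) and 3 fell (7.86% fell). The 3 libraries of one genotype did not overlap those of the other for 7 of the 10 genes, 5 of them lower and 2 higher in the cKO, against 37.0% of all tested genes (18.2% lower, 18.8% higher). The median log2 fold change was -0.08 over the 10 genes and 0.00 over all tested genes (0.003 before rounding). Because whole tissue was measured, fewer cells of a type and less RNA per cell cannot be told apart in any of these results.

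**Figure D1:**
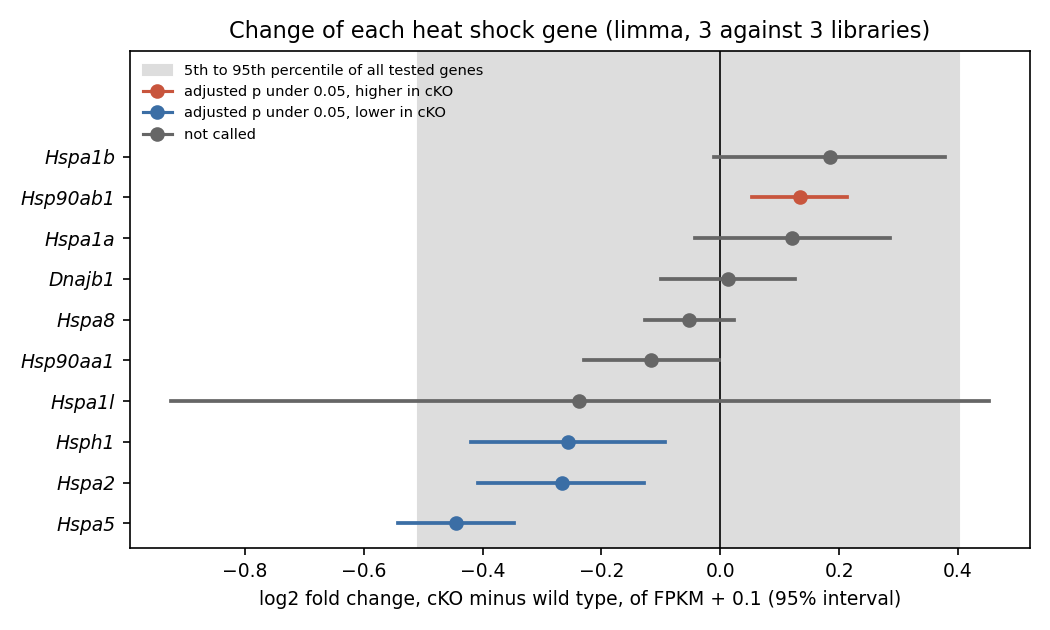
Change of each of the 10 heat shock genes between cKO and wild-type testes, as the log2 fold change of FPKM + 0.1 (horizontal axis) with its 95% interval from limma; colours mark the call and the grey band spans the 5th to 95th percentile of all tested genes (-0.51 to 0.40). The interval of Hspa5 lies farthest below 0, and Hsp90ab1 is the only gene called higher.

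HSPA5, also called BiP, is the HSP70 of the ER lumen, where it folds secreted and membrane proteins and holds the stress sensors inactive. The gene lies on the + strand at chr2:34771970-34777547 (mm10). The bases before its start are shown because they carry the ER stress response element through which ATF6 is known to induce it (CCAAT, then 9 free bases, then CCACG, searched on both strands). The sequence is from RefSeq on GRCm38.p6, the assembly of mm10, and capitals mark the match:
Hspa5, chr2:34771840-34772089, + strand: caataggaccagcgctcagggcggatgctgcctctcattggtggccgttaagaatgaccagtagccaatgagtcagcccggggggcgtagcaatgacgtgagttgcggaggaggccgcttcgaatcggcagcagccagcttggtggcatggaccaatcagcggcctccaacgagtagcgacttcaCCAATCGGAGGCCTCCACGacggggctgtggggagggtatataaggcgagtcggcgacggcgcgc
The element lay 65 to 47 bases before the RefSeq start, which lies inside the longer gene model given above, and TATATAA stood 28 to 22 bases before it. Of 32851 RefSeq mouse promoters searched over the same 250 bases, 0.113% held the element and 3.04% held TATATAA. A match is a description of the letters and not a measured binding site.

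Hspa5 was at 163.5, 162.9 and 161.9 FPKM in the wild-type libraries and at 113.2, 120.7 and 124.9 FPKM in the cKO libraries. The wild-type libraries lay within a narrow band, and every cKO library was far below it. The difference was a fall of 26.5% in the mean FPKM (log2 fold change -0.45, SE 0.043, 95% interval -0.54 to -0.35, limma adjusted p = 0.00081). These values rested on 7844 to 11481 fragments per library. Of 428 tested genes with a mean of at least 100 FPKM, 8 fell by more. The adjusted p of Hspa5 stayed under 0.05 in all 16 other settings tried, its log2 fold change running from -0.48 to -0.41. The value nearest 0 was the one without cKO replicate 1.

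Hspa5 was not alone among the genes of ER folding. Of 27 other ER chaperone and unfolded protein response genes, all tested, 7 fell and 0 rose by limma, where 7.86% of all tested genes fell and 7.67% rose. Their median log2 fold change was -0.09, and their summed level went from between 1376 and 1380 FPKM in wild-type libraries to between 1226 and 1237 FPKM in cKO libraries. At an unadjusted p under 0.05, 12 were lower and 3 higher, and the share of all tested genes at that threshold was not counted. The voom model on fragments called 11 lower and 2 higher. Voom also called more genes in the whole table, 1968 lower and 2115 higher, against 1388 and 1355 by limma.

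Sdf2l1, an ER protein that binds HSPA5 and its J partners, was at 21.4, 20.1 and 21.2 FPKM in wild type and at 12.2, 10.7 and 12.6 FPKM in the cKO. It had the largest fall of the list (log2 fold change -0.82, SE 0.065, limma adjusted p = 0.000381). Calr encodes calreticulin, a lectin chaperone of glycoproteins, and was at 197.1, 193.9 and 192.8 FPKM against 153.5, 145.1 and 148.5 FPKM. Dnajc3, an ER J protein, was at 16.7, 16.4 and 18.8 FPKM against 13.5, 13.4 and 12.9 FPKM. In all 3 genes every cKO library lay below every wild-type library, with limma adjusted p values of 0.000675 for Calr and 0.00601 for Dnajc3. The other genes that fell, named after their values were seen, were the ER J protein gene Dnajb11 (log2 fold change -0.35), the disulfide isomerase gene Pdia4 (-0.34), the ER-resident trophic factor gene Manf (-0.23) and the ER HSP90 gene Hsp90b1 (-0.18, limma adjusted p = 0.0352). The call of Hsp90b1 was lost in 7 of 16 other settings.

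Other members of that list did not pass the test. Hyou1, an ER HSP110 and exchange factor of HSPA5, was at 32.3, 31.5 and 32.7 FPKM against 32.3, 31.4 and 31.5 FPKM, and the groups overlapped (log2 fold change -0.02, 95% interval -0.11 to 0.07). Xbp1, a transcription factor of the unfolded protein response, had a log2 fold change of -0.06 (limma adjusted p = 0.415). The ratio of Hspa5 to Hyou1 within a library was 4.94 to 5.17 in wild type and 3.50 to 3.97 in the cKO. The ratio of Hspa5 to Calr was 0.829 to 0.840 in wild type and 0.737 to 0.841 in the cKO, so the groups overlapped there. Its lowest value was that of cKO replicate 1, and the other cKO ratios were 0.832 and 0.841.

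**Figure D2:**
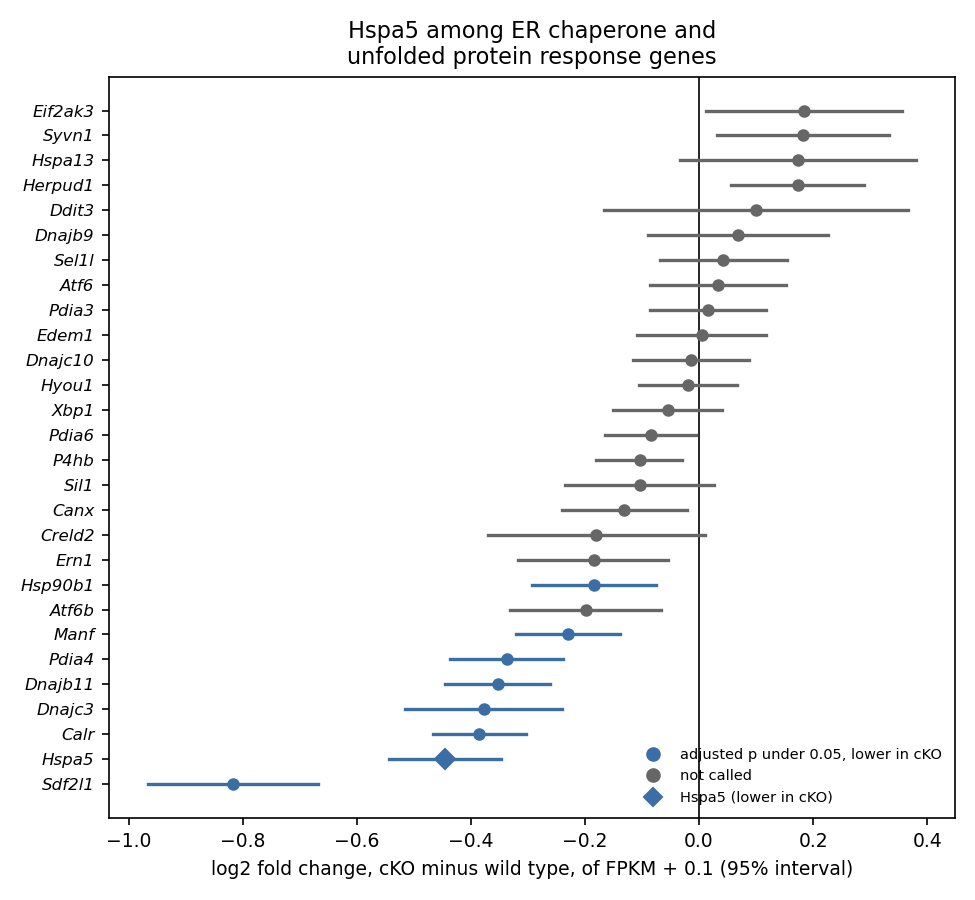
Log2 fold change of FPKM + 0.1 between cKO and wild type (horizontal axis, points with 95% intervals from limma) for 27 ER chaperone and unfolded protein response genes and for Hspa5 (diamond). Blue points are the genes called lower, grey points were not called, and Sdf2l1 lies lowest.

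The ER list was also read by its promoter letters, since Hspa5 carries the element shown above. RefSeq gave a promoter for 22 of the 27 genes, and 8 of those held the same element or its second form, ATTGG, 1 free base and CCACG (0.0304% of all promoters). Of the 8, 3 fell and 5 were not called, and of the 14 without either form, 3 fell. The elements of 3 genes that fell and of 1 that was not called, Pdia6, are given 5' to 3' on the strand of each gene, with the fixed letters in capitals:
Calr, chr8:84847075-84847093: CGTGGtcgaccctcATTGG
Dnajc3, chr14:118937827-118937845: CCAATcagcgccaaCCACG
Hsp90b1, chr10:86705638-86705656: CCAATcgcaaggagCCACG
Pdia6, chr12:17266491-17266509: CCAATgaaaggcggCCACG
Of the elements listed above, that of Calr reads in the opposite orientation to the others. Hsp90b1 held a further one, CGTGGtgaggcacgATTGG, nearer its start (107 to 89 bases before it). Pdia6, a disulfide isomerase gene, had a log2 fold change of -0.09 (limma adjusted p = 0.137). Also not called were Canx (-0.13), Creld2 (-0.18), Herpud1 with the second form (0.17, limma adjusted p = 0.0556) and Syvn1 (0.18, limma adjusted p = 0.0989). These were named after their values were seen, and Herpud1 and Syvn1 were higher in every cKO library. The element thus stood in promoters of genes that fell and of genes that were not called, some of them higher.

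The cytosolic inducible pair Hspa1a and Hspa1b, the main stress-induced HSP70 genes, did not pass the test. They lie on the - strand at chr17:34969190-34972156 and chr17:34956436-34959238, 9951 bases apart. Their promoters are shown because the pair differed at only 3 of these 250 bases (98.8% identity), and because each held the letters of a heat shock element, given in capitals:
Hspa1a, chr17:34972157-34972406, - strand: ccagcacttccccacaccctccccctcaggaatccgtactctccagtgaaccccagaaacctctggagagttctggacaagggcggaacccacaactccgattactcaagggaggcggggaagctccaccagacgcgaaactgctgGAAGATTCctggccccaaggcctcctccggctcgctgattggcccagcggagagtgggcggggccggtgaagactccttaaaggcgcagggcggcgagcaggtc
Hspa1b, chr17:34959239-34959488, - strand: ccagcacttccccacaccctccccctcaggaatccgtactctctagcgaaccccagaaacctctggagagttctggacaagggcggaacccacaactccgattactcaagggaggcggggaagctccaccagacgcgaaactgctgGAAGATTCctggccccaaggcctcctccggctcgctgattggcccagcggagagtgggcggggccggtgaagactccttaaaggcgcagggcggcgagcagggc
In both, GAAGATTC stood 104 to 97 bases before the start. A heat shock element is built of GAA units in alternating orientation, and it was searched as GAANNTTC (6.69% of all promoters) and TTCNNGAA (7.17%), with 12.8% of promoters holding either. The longer form of 3 units (GAA, TTC and GAA with 2 free bases between them, or its reverse), which contains both shorter ones, was held by 0.466% and by none of these windows.

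Hspa1a was at 6.80, 7.66 and 7.66 FPKM in wild type and at 8.64, 7.70 and 7.75 FPKM in the cKO. Its groups were set apart by a gap far smaller than the spread within either (log2 fold change 0.12, 95% interval -0.04 to 0.29, limma adjusted p = 0.291). Without cKO replicate 1 its log2 fold change was 0.07, and without wild-type replicate 1 it was also 0.07. Hspa1b was at 7.24, 7.16 and 6.48 FPKM against 8.49, 8.33 and 7.01 FPKM. The groups overlapped, with 2 cKO libraries above all wild-type ones (log2 fold change 0.18, 95% interval -0.01 to 0.38, limma adjusted p = 0.181).

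The coding sequences of Hspa1a and Hspa1b differed at 8 of 1926 aligned bases (99.6% identity), and 47.1% of the 100-base words of the Hspa1a transcript also occurred in Hspa1b. The split of shared fragments between the copies is uncertain, because no source used here states how they were assigned, and their sum was tested as well. Whether shared fragments were counted at all is not stated either, so both levels and their sum may be too low. The sum was 14.0, 14.8 and 14.1 FPKM in wild type and 17.1, 16.0 and 14.8 FPKM in the cKO, where the lowest cKO library lay just below the highest wild-type one. Its log2 fold change was 0.15 (SE 0.06, 95% interval 0.01 to 0.29, limma adjusted p = 0.127), and without cKO replicate 1 it was 0.10 (limma adjusted p = 0.253). The sum was called in none of the 16 other settings, and its adjusted p came nearest the threshold without cKO replicate 3, at 0.0561.

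DNAJB1, the J protein that pairs with the cytosolic HSP70 forms, is itself induced by heat. Dnajb1 was at 29.4, 29.2 and 27.8 FPKM in wild type and at 29.1, 30.5 and 27.6 FPKM in the cKO. The cKO libraries spanned the whole wild-type range (log2 fold change 0.01, 95% interval -0.10 to 0.13, limma adjusted p = 0.884). No exact heat shock element match stood in either RefSeq window of Dnajb1, nor in those of Hspa2 and Hspa1l. The second window of Dnajb1 (chr8:83608298-83608547) lies inside its gene model, which starts at chr8:83608193. Looser or more distant elements were not searched.

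HSPH1, an HSP110 protein that exchanges nucleotide on HSP70, is another heat-induced form. It is shown as the third promoter with a heat shock element, TTCTCGAA, 33 to 26 bases before the upstream of its 2 RefSeq starts:
Hsph1, chr5:149636337-149636586, - strand: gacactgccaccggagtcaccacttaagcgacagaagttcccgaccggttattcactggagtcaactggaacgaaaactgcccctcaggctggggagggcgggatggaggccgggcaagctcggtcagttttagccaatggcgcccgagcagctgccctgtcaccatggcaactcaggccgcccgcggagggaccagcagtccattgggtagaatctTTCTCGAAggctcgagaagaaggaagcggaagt
This element, at chr5:149636362-149636369, lies inside the longer gene model of Hsph1, chr5:149614287-149636376. Hsph1 was at 5.97, 5.44 and 5.73 FPKM in wild type and at 4.92, 4.95 and 4.44 FPKM in the cKO. Every cKO library was below every wild-type library, and the mean fell by 16.5% (log2 fold change -0.26, SE 0.071, limma adjusted p = 0.045). The call was lost without any 1 of the 6 libraries: the limma adjusted p was 0.136, 0.0769 and 0.122 without wild-type replicates 1, 2 and 3, and 0.06, 0.069 and 0.115 without cKO replicates 1, 2 and 3. It was also lost when no filter on low values was used (0.104). The heat shock elements thus stood before the RefSeq starts of a gene called lower and of a pair of genes that were not called.

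Of the set, Hsp90ab1 had the highest level per length, while Hsp90aa1 stood below Hspa8 in both genotypes. Hsp90ab1, the constitutive cytosolic HSP90, ranked 23 among all 54532 genes by mean FPKM. It was at 692.1, 663.6 and 671.5 FPKM in wild type and at 760.7, 730.9 and 733.4 FPKM in the cKO. All cKO libraries were above all wild-type libraries, and the mean was 9.8% higher (log2 fold change 0.13, SE 0.035, 95% interval 0.05 to 0.21, limma adjusted p = 0.0367). The call was kept without cKO replicate 1 (limma adjusted p = 0.0489). It was lost without wild-type replicates 1, 2 and 3 (0.0527, 0.15 and 0.128), without cKO replicates 2 and 3 (0.061 and 0.0728), and with quantile normalization, where the log2 fold change was 0.07 (limma adjusted p = 0.122).

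Hsp90aa1, the inducible HSP90 that is also abundant in germ cells, was at 148.0, 142.2 and 141.4 FPKM in wild type and at 124.0, 139.7 and 134.9 FPKM in the cKO. The cKO libraries were all below the wild-type ones, but cKO replicate 1 lay well apart from the other two. The difference was not called by limma (log2 fold change -0.12, 95% interval -0.229 to -0.002, limma adjusted p = 0.153). The voom model called it lower at an adjusted p of 0.0235. Without cKO replicate 1 its log2 fold change was -0.07, and the correction for GC content and length also gave -0.07. The exons of Hsp90aa1 and Hspa1a have the lowest and highest GC content of the set (44.9% and 58.9%).

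The balance between the cytosolic HSP90 forms was therefore also read within each library. Hsp90ab1 exceeded Hsp90aa1 by 4.68, 4.67 and 4.75 times in wild type and by 6.13, 5.23 and 5.43 times in the cKO. The lowest cKO ratio was above the highest wild-type ratio. This follows from the values above, where every cKO library was higher for Hsp90ab1 and lower for Hsp90aa1. The summed FPKM of the pair was 819.6 ± 18.1 in wild type and 874.5 ± 8.85 in the cKO (SD, n = 3 per group), and the coding sequences of the pair are 76.8% identical.

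**Figure D3:**
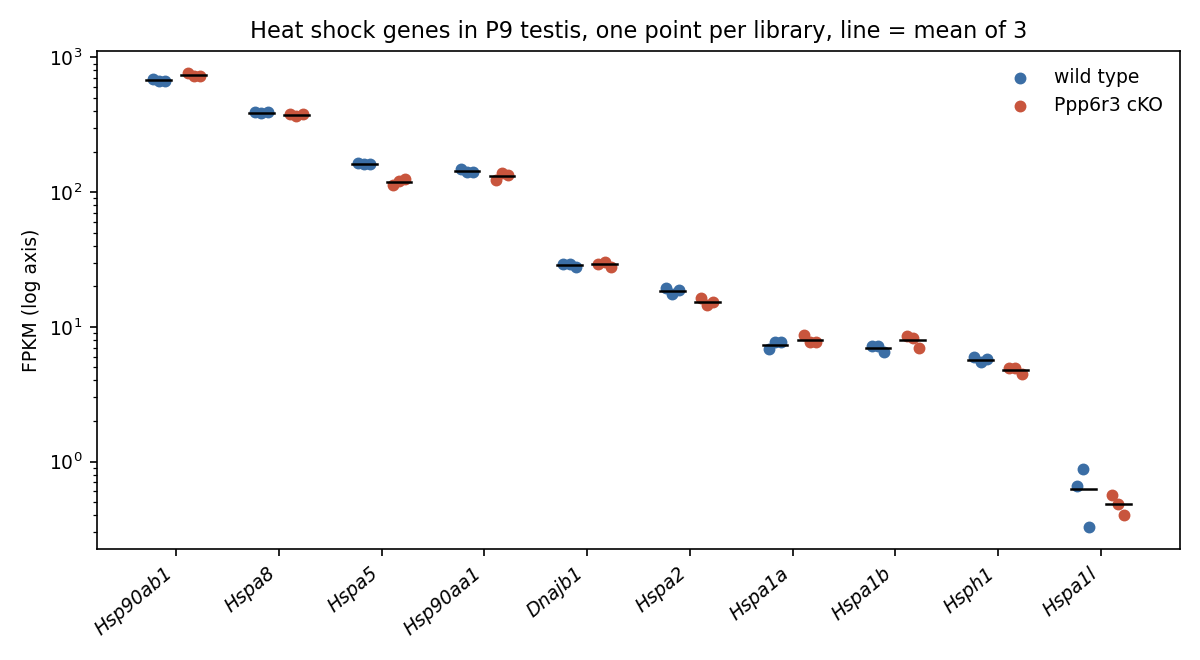
FPKM of the 10 heat shock genes on a log axis, 1 point per library and a line at the mean of 3, wild type in blue and cKO in red. Levels run from over 600 FPKM for Hsp90ab1 to under 1 FPKM for Hspa1l, and the separation of the genotypes is widest for Hspa5.

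HSPA8 is the constitutive HSP70 that folds new proteins and uncoats clathrin vesicles. Hspa8 was at 392.0, 385.0 and 392.9 FPKM in wild type and at 379.1, 368.6 and 381.2 FPKM in the cKO. Every cKO library was below every wild-type one, by a small margin (log2 fold change -0.05, 95% interval -0.13 to 0.02, limma adjusted p = 0.324). Within each library the ratio of Hspa8 to Hspa5 was 2.40, 2.36 and 2.43 in wild type and 3.35, 3.05 and 3.05 in the cKO. Hspa5 made up 27.8% ± 0.251 of the FPKM of the 6 HSP70 genes in wild type and 22.7% ± 1.01 in the cKO, and Hspa8 made up 66.5% ± 0.278 and 71.3% ± 0.629 (SD, n = 3 per group). The sum over all 10 heat shock genes was 1440 ± 22.3 FPKM in wild type and 1436 ± 9.36 FPKM in the cKO (SD, n = 3 per group), and the groups overlapped. The sum over the 6 HSP70 genes alone went from 586.2 ± 4.45 FPKM in wild type to 527.7 ± 8.16 FPKM in the cKO (SD, n = 3 per group), without overlap. The HSP70 shares restate the changes of single genes: Hspa8 itself was not higher, and its share rose as Hspa5, and with it this HSP70 sum, was lower. Hsp90ab1 made up 46.9% ± 0.293 of the sum over all 10 in wild type and 51.6% ± 0.87 in the cKO (SD, n = 3 per group).

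**Figure D4:**
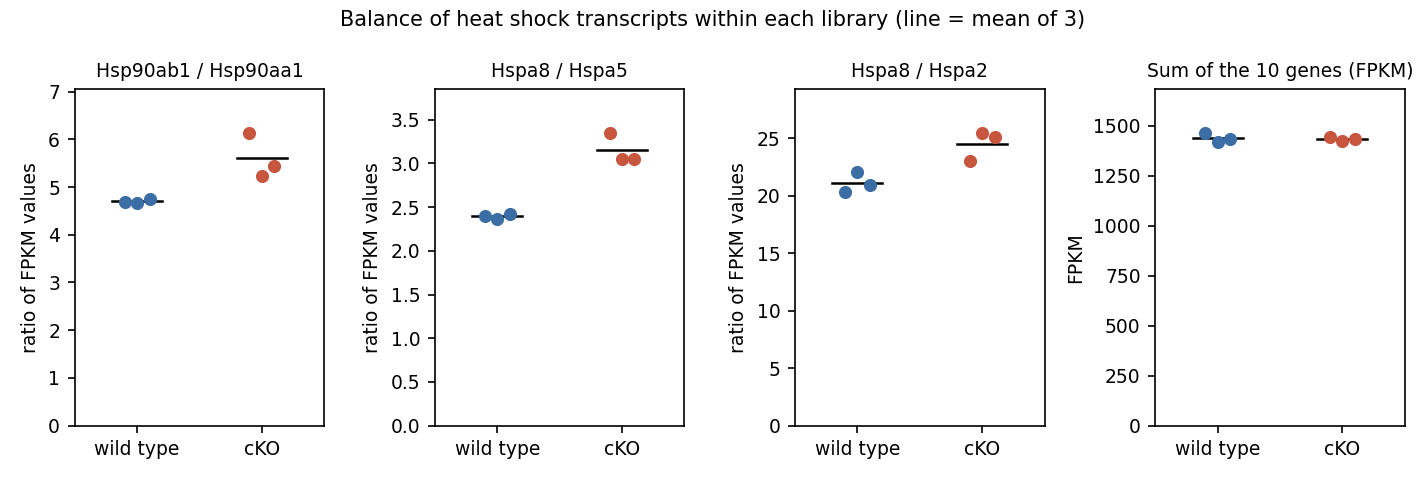
Ratios of heat shock genes within each library (first 3 panels, ratio of FPKM values) and the sum of all 10 (last panel, FPKM); points are libraries and lines the means of 3. The 3 ratios do not overlap between wild type and cKO, while the sums, 1422 to 1465 and 1426 to 1445 FPKM, do. Each ratio contains a gene that limma called changed, so these panels are not results apart from those calls.

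Of the testis forms, Hspa2 at chr12:76404176-76406938 encodes the HSP70 of spermatocytes, which is needed for the synaptonemal complex to disassemble. It was at 19.3, 17.5 and 18.8 FPKM in wild type and at 16.4, 14.5 and 15.2 FPKM in the cKO. The highest cKO library was below the lowest wild-type library, and the cKO mean was 0.83 of the wild-type mean (log2 fold change -0.27, SE 0.061, 95% interval -0.41 to -0.13, limma adjusted p = 0.0232). The call was lost without wild-type replicate 1 (limma adjusted p = 0.0758), wild-type replicate 3 (0.0803), cKO replicate 2 (0.0658) or cKO replicate 3 (0.0636), and when no filter on low values was used (0.0671). Genes of meiotic entry and early prophase moved the same way: 25 of 25 tested fell, with a median log2 fold change of -0.97, and their summed level went from between 674.1 and 680.9 FPKM to between 387.1 and 403.4 FPKM. None of them was at 0 in all libraries. The part of these cells in the lower Hspa2 was not tested.

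HSPA1L is the spermatid form, and Hspa1l lies on the + strand only 546 bases from Hspa1a, at chr17:34972703-34979285. It was at 0.658, 0.878 and 0.329 FPKM in wild type and at 0.568, 0.481 and 0.401 FPKM in the cKO. The groups overlapped fully, and each value rested on only 13 to 36 fragments (log2 fold change -0.24, 95% interval -0.92 to 0.45, limma adjusted p = 0.639). The interval spans both a fall and a rise, so the direction was not resolved at this depth. An antisense gene model, Gm10501, overlaps Hspa1l and shares 70.8% of its 100-base words, and its own level did not exceed 0.246 FPKM. Markers of spermatids were low in the same libraries: the listed genes summed to between 17.4 and 18.1 FPKM in wild type and between 15.5 and 16.5 FPKM in the cKO. Only 6 of them had enough fragments to be tested, of which 2 fell, and 1 fell without any 1 library but cKO replicate 2. Most of each spermatid sum was Odf2 (11.2 against 9.13 FPKM in the mean), which was 1 of the 2 that fell. Of the later spermatocyte genes 8 could be tested and 2 fell (1 without any 1 wild-type library or cKO replicate 3), their list summed to between 40.6 and 41.0 FPKM against 28.8 and 30.1 FPKM, and Ldhal6b was listed at 0. Most of that difference was Ybx2, a germ cell RNA-binding protein gene (19.1 against 9.22 FPKM in the mean), while Meig1 was at 8.86 against 9.36 FPKM. The testis forms thus stood here in tissue with few transcripts of the stages in which Hspa1l is known to act.

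In wild type the order of levels per length was Hsp90ab1, Hspa8, Hspa5, Hsp90aa1, Dnajb1, Hspa2, Hspa1a, Hspa1b, Hsph1 and Hspa1l, and only Hspa1a and Hspa1b overlapped as neighbours. In the cKO Hsp90aa1 (132.9 ± 8.06 FPKM) stood before Hspa5 (119.6 ± 5.97 FPKM; SD, n = 3 per group), and these also overlapped. Among the HSP70 genes, coding identity to Hspa1a was 83.9% for Hspa1l, 80.3% for Hspa2, 75.2% for Hspa8 and 65.8% for Hspa5. Transcripts of Hspa2, Hspa5, Hsph1, Hsp90ab1 and Dnajb1 shared no 100-base word with another gene, so the 4 genes that were called are among these. In Hspa8 63.4% and in Hsp90aa1 47.5% of words occurred in other genes, mainly pseudogene models whose own levels did not exceed 2.20 FPKM for Gm8355 and 3.44 FPKM for Gm12346. If shared fragments were not counted, the levels of these genes in the order above may be too low.

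The wider chaperone network was counted from its own lists. Of 4 heat shock factor genes and the factor-binding Hsbp1, limma called 0, with 2 lower and 0 higher at an unadjusted p under 0.05. Those were Hsf5, a factor of meiotic germ cells (log2 fold change -0.57, limma adjusted p = 0.0984, called lower by voom at 0.0266), and Hsf4 (-0.61, limma adjusted p = 0.158), both at or under 1.25 FPKM. Hsf1, the factor of the heat response, had a log2 fold change of 0.01 (95% interval -0.14 to 0.15), which turned to -0.07 with GC and length correction. Among 8 other HSP70 and HSP110 genes 0 rose and 1 fell, Hspa4l, an HSP110 abundant in male germ cells (log2 fold change -0.25, limma adjusted p = 0.0227), and 3 rose with GC and length correction and 1 with voom.

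Few partners of HSP70 and HSP90 passed the test. Among 23 J proteins 0 rose and 1 fell, Dnajc7 (log2 fold change -0.16), and voom called 1 higher and 2 lower. The calls of Hspa4l and Dnajc7 were each lost without any 1 wild-type library and without cKO replicate 2 (limma adjusted p 0.0563 to 0.0814). Among 11 HSP70 co-chaperones 1 rose, Bag6 (0.17), whose call was lost without any 1 of the 6 libraries (limma adjusted p 0.0501 to 0.135), with no filter on low values (0.095) and with GC and length correction (0.078 on the log2 scale). Among 20 HSP90 co-chaperones 2 fell, Tomm34 (-0.19) and Tsc1 (-0.20), and the call of Tsc1 was lost in 8 of 16 other settings, kept among the fits that leave out a library only without cKO replicate 1. The number of HSP90 co-chaperones that fell was 0 without wild-type replicate 1, wild-type replicate 2 or cKO replicate 3. Of 17 chaperonin TRiC and prefoldin genes limma called 0, with 0 higher and 1 lower at an unadjusted p under 0.05, while voom called 1 lower and the fit with GC and length correction called 3 higher.

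Small heat shock proteins, which hold unfolded proteins without ATP, differed among themselves: of 9 tested, 2 rose and 2 fell. Hspb1 was at 113.0, 122.3 and 98.5 FPKM in wild type and at 152.4, 151.4 and 144.9 FPKM in the cKO. All cKO libraries were above the wild-type ones (log2 fold change 0.43, SE 0.073, limma adjusted p = 0.00802). Hspb8, whose product acts with BAG3 in chaperone-assisted autophagy, was at 3.86, 3.92 and 3.37 FPKM against 5.63, 6.03 and 5.34 FPKM (log2 fold change 0.60, limma adjusted p = 0.00389). Cryab (-0.26, limma adjusted p = 0.0367) and Hspb11, a component of intraflagellar transport (-0.32, limma adjusted p = 0.0144), fell. Both rises were called in all 16 other settings, and the call of Cryab was lost in 10 of them.

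Of 20 other genes known to be induced through HSF1, which include Hspb1, Hspb8, Cryab and Hspa4l from above, 6 rose and 2 fell, with a median log2 fold change of 0.02. The remaining 4 that rose, named after their values were seen, were Hmox1 (0.21), Sqstm1 (0.17), Ier5 (0.20) and Serpinh1 (0.16, limma adjusted p = 0.0419), a heme oxygenase, an autophagy receptor, an HSF1 regulator and a collagen chaperone of the ER. The number that rose was 3, 2 and 2 without wild-type replicates 1, 2 and 3 and 3 without cKO replicate 2, and it was 3 with no filter on low values. Of 17 with a RefSeq promoter, 6 held an exact match to a heat shock element in the 250 bases before the start. Of these 1 rose (Hspb1) and 5 were not called, while 4 of the 11 without a match rose and 1 fell. Looser or more distant elements were not searched. Immediate early genes, the fast transcriptional response to growth signals, were higher in the same cKO libraries: 12 of 23 rose and 0 fell by limma (17 higher and 0 lower at an unadjusted p under 0.05, and 14 and 0 by voom), their median log2 fold change was 0.38, and their sum went from between 202.4 and 204.9 to between 254.5 and 262.4 FPKM. None of the list was at 0 in all libraries, and their part in the values of the heat-inducible genes was not tested.

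**Figure D5:**
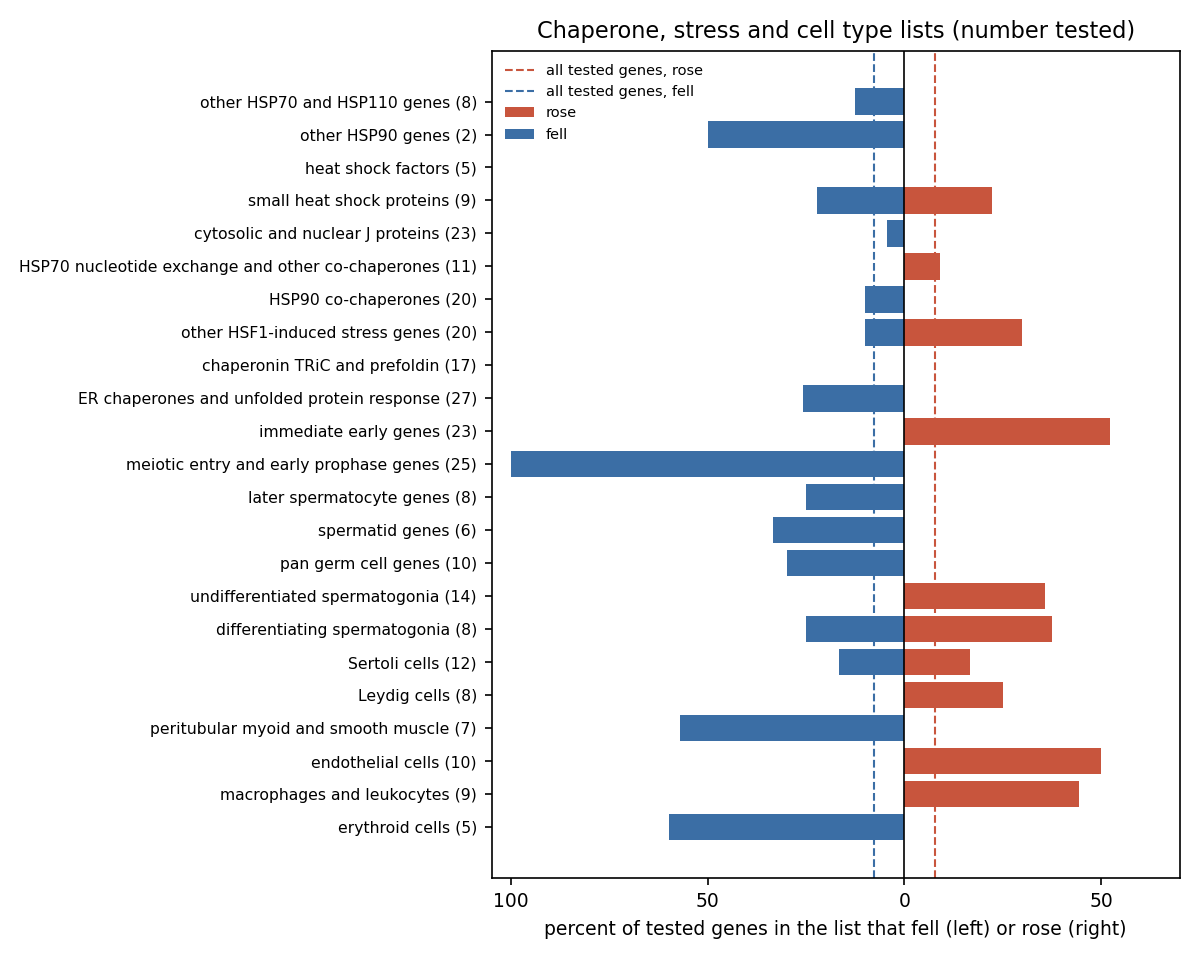
Percent of the tested genes of each list (number tested in parentheses) that rose (red, right) or fell (blue, left) in cKO against wild-type testes by limma; dashed lines mark the same shares over all tested genes, 7.67% and 7.86%. The ER list has calls to the left only, the immediate early list to the right only, and the meiotic list fell throughout.

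Markers of other testis cells also differed between the genotypes. Of 10 endothelial markers 5 rose (sum 42.8 to 46.9 FPKM in wild type, 64.0 to 68.8 FPKM in the cKO), of 9 macrophage markers 4 rose (107.1 to 112.9 against 143.5 to 155.6 FPKM), and of 7 peritubular myoid markers 4 fell (626.2 to 652.4 against 529.2 to 556.8 FPKM), a count that was 2 without any 1 of the 6 libraries. Of 12 Sertoli markers 2 rose and 2 fell (1 without any 1 wild-type library), and their sums overlapped (2212 to 2287 against 2104 to 2305 FPKM). Of 10 pan germ cell genes 0 rose and 3 fell (394.6 to 403.4 against 334.4 to 358.0 FPKM). Of the remaining lists, 5 of 14 genes of undifferentiated spermatogonia rose, 3 of 8 of differentiating spermatogonia rose and 2 fell, 2 of 8 Leydig genes rose and 3 of 5 erythroid genes fell. The count for undifferentiated spermatogonia was 2 without wild-type replicate 2 and 3 without cKO replicate 3, and the 3 that rose in differentiating spermatogonia became 1 without any 1 library but cKO replicate 3. None of these 9 lists had a marker at 0 in all libraries, and their part in the levels of Hspa5, Hsp90ab1 and the other heat shock genes was not tested.

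The genes most like 4 of the heat shock genes in pattern were found by Pearson's r of log2(FPKM + 0.1) over the 6 libraries, among 12242 named genes with a mean of at least 1 FPKM. For Hspa5 these were Tex15 (r = 0.998), Sulf1 (0.998) and Cipc (0.997), of which Tex15, a gene of meiotic recombination and germline silencing, went from a mean of 14.0 to 8.48 FPKM (log2 fold change -0.72). For Hspa2 they included Phf8 (0.998) and Gas2 (0.993). Hspa1a was nearest to Ift46 (0.990), Vars (0.984) and Eef1b2 (0.983), and Hsp90aa1 to Slc6a21 (0.993), Mybl1 (0.989) and Rtraf (0.986). With 6 libraries of 2 genotypes and so many genes searched, such values describe these libraries only, and all points share the difference between the genotypes and the deviation of cKO replicate 1.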

How the data were processed

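Per the series' design text, testis RNA was purified with TRIzol and oligo(dT) beads and paired-end reads were aligned to mm10 with HISAT2 2.0.5; the labels' protocols name a stranded KAPA kit, and DESeq2 appears without a role in the submitters' processing notes. The sources used here do not give the counting tool, its strand setting or the annotation. The deposited values, which the authors' table names as counts, are FPKM. FPKM times GENCODE M21 exon length was, within 0.01, a whole number of equal steps in 31625 of 32589 genes above 0 (97.0%), and for another length in the other 964, which gave fragments per gene and 15970909 to 16606868 fragments per library; this depth is an inference from the values.

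Genes with at least 10 fragments in at least 3 libraries (17658) were tested on log2(FPKM + 0.1) with limma 3.58.1 in R 4.3.3 (trend and robust estimation, 2-sided, Benjamini-Hochberg over all of them, threshold 0.05). Fold changes on that scale understate those of low genes. The fit had no replicate block and was tested on simulated data. An exact permutation test of 3 against 3 libraries cannot go below 0.1 and was not used. Alternatives were voom on the fragments, pseudocounts of 1 and 0.01, no filter, at least 0.5 FPKM, median-ratio scaling, quantile normalization, GC and length correction, the replicate block, each library left out, and a threshold of 0.01. No pair of replicates was within sampling noise of each other (chi-square over its degrees of freedom from 2.19 to 4.32). 

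The heat shock genes and all lists were chosen with earlier results of these data known, so no list was tested as a set. Named were the 10 genes, Ppp6r3, up to 3 called genes of a list with the largest change (or 2 with the smallest p where none was called), and the 3 genes most like Hspa1a, Hspa2, Hspa5 and Hsp90aa1; the text leaves out some genes that the rule allows. Hyou1, Xbp1, Pdia6, Hsf1, Meig1 and the genes marked in the text were named after their values were seen. Promoters came from RefSeq (GRCm38.p6), with entries for 7 of the 10 genes (not Hspa8, Hsp90aa1 and Hsp90ab1), and transcript sequences from GENCODE M21.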

Additional observations from a re-analysis of the deposited data

How the results depend on the processing

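In the fit reported above 2743 genes changed (1355 rose, 1388 fell) and 4 heat shock genes changed. With voom 2115 genes rose. With no filter on low values 1508 changed (740 rose, 768 fell), and 2 heat shock genes changed, 1 of which fell. With quantile normalization 0 heat shock genes rose. With a threshold of 0.01, 889 genes changed (418 rose, 471 fell), and 1 heat shock gene changed, Hspa5, so that 0 rose and 1 fell. With 1 library left out, 1242 to 2396 genes changed (600 to 1120 rose, 642 to 1276 fell), and of the heat shock genes 1 to 3 changed, 0 to 1 rose and 1 to 2 fell; those fits have fewer samples. The lowest counts over all genes came without wild-type replicate 2. Direction reversed, among the genes named, only for some not called in either setting: the log2 fold change of Hspa1l ran from -0.571 (without wild-type replicate 3) to 0.022 (without wild-type replicate 2) and that of Dnajb1 from -0.022 (without cKO replicate 2) to 0.05 (without cKO replicate 3), and was -0.013 without wild-type replicate 3. Hsf1 was at -0.075 with GC and length correction, with or without the replicate block, and with 1 library left out ran from -0.038 to 0.047, with -0.03 without wild-type replicate 3. The replicate numbers do not pair the samples: same-numbered deviations correlated at 0.014, -0.005 and -0.007, and not every library correlated best with its own number. With the replicate block 1094 genes rose, 1103 fell and only Hsph1 of the called heat shock genes lost its call (adjusted p = 0.0724). Among the heat shock genes depth was lowest for Hspa1l, at 13 to 36 fragments per library. The cause of the other changes was not tested.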
